A study of Rattus norvegicus with 83 samples.

Results

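The ferritin and iron handling genes described here are Fth1, Ftl1, Tfrc, Slc40a1, Hmox1 and Hmox2. They were chosen by symbol, and all 6 were found among the 17483 rows of the deposited count table. The table holds 83 libraries of tissue labelled testis from offspring of Sprague-Dawley rat dams, made by BRB-seq, in which poly(A) RNA is barcoded per sample, pooled and sequenced from its 3′ ends. Every dam was gavaged once a day from gestational day 7, with methimazole at 8 mg/kg (MMI8) or 16 mg/kg (MMI16), amitrole at 25 mg/kg (Ami25) or 50 mg/kg (Ami50), or the corn oil vehicle alone. Tissue was taken at pup day 16 (PD16; 10 MMI8, 10 MMI16, 11 Ami25, 12 Ami50 and 10 vehicle libraries) or at gestational day 21 (GD21; 6 libraries in each of the same 5 groups), with birth expected on gestational day 23. The pups were exposed through the dam, and the labels do not say which libraries share a litter, so p-values measure the spread between these libraries only.

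Iron is imported into cells when transferrin binds the transferrin receptor, is stored inside ferritin, and leaves cells through ferroportin. Iron regulatory proteins tie these steps together. When iron is scarce they bind stem-loops in the messenger RNAs, which blocks translation of ferritin and protects the transferrin receptor transcript from decay. Ferritin protein can therefore change without a change in its RNA, and RNA counts do not measure the protein. Developing red cells take up most of the iron of the body for haem, while macrophages recover it from old red cells with haem oxygenase. Steroid-making tissue also needs iron, since its cytochrome P450 enzymes carry haem and those in mitochondria are fed electrons by an iron-sulphur protein. Methimazole and amitrole are both inhibitors of thyroid hormone synthesis, and amitrole also inhibits catalase, a haem enzyme.

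Several properties of the libraries bear on the iron genes. Total counts were 202270 to 1186973 at PD16 and 495369 to 1627114 at GD21. Genes that mark the testis summed to between 0 and 28.3 CPM (counts scaled to a common library total) in a library, with 13 libraries at 0, while adrenal cortex genes summed to between 7610 and 58863 CPM and adrenal medulla genes to between 667 and 2108 CPM. The data thus go against the tissue label. Globin transcripts, which come from blood in the tissue, made up 9.60% ± 1.83 of counts in PD16 Ami25, 8.86% ± 1.82 in PD16 Ami50, 4.09% ± 0.597 in PD16 MMI8, 4.05% ± 0.615 in PD16 MMI16 and 3.81% ± 0.451 in PD16 vehicle libraries (SD), and group means of 8.05% to 10.3% at GD21. At PD16, embryonic globins made up at most 0.368% of globin counts in amitrole libraries and 8.79% to 23.0% in methimazole libraries, against 11.6% to 19.4% in vehicle libraries. At GD21 they made up at most 0.878%. Embryonic globins mark early development, so these shares go against the stage labels of the PD16 methimazole and vehicle groups, and every stage named below is the label's. Albumin, made by the liver, was at 200 CPM or more in 15 libraries, and of the 12 PD16 Ami50 libraries 8 had less than 10 CPM of the Y-linked gene Eif2s3y. Some results, but not all, are given with and without the albumin-rich libraries or those low in Eif2s3y, which cannot be done for whole groups.

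Across the 6 genes, Fth1 and Hmox1 were higher at PD16 in both amitrole groups, and none of the 6 passed the test in a methimazole group. A gene was called when its Benjamini-Hochberg adjusted p, from edgeR's quasi-likelihood test over all genes tested, was under 0.05. All 6 genes passed the filter on low counts at both stages. For Hmox1 at PD16 this rested mainly on amitrole libraries, since its highest level in vehicle libraries was 16.2 CPM. Its medians were 12.4 CPM in MMI8, 13.8 CPM in MMI16, 25.1 CPM in Ami25 and 28.1 CPM in Ami50. At PD16, 2 of the 6 were called in Ami25 and 2 of the 6 in Ami50 against vehicle, beside 54.4% and 52.4% of all 4906 genes. The median log2 fold change of the 6 was 0.26 in Ami25 and 0.17 in Ami50, against medians of 0.01 and 0.02 over all genes. In MMI8 and in MMI16, 0 of the 6 were called, beside 8.09% and 7.79% of all genes. None of the 6 had an unadjusted p under 0.05 in either methimazole comparison, and DESeq2 called 0. The 4 comparisons share the 10 vehicle libraries. PD16 amitrole and vehicle libraries also differ in embryonic globin share, so in the amitrole comparisons treatment and true age cannot be told apart.

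**Figure D1:**
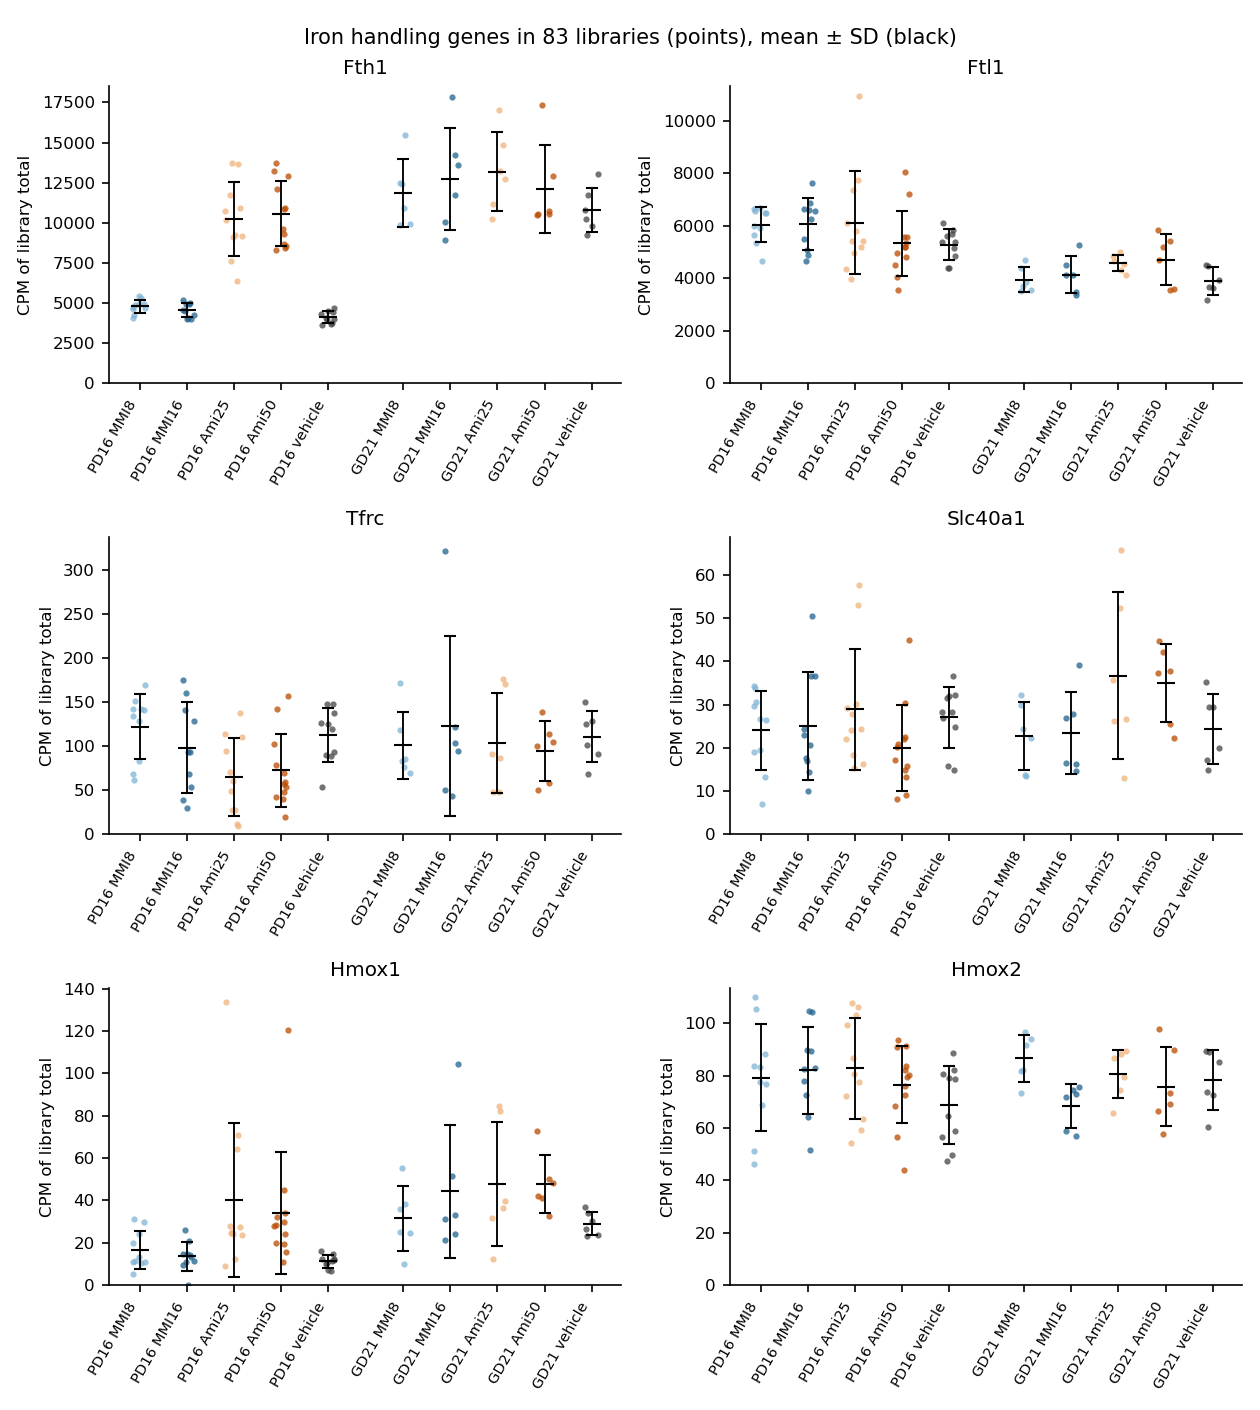
Levels of the 6 genes in every library, in CPM of the library total, with PD16 groups on the left and GD21 groups on the right of each panel; points are libraries and black bars are the mean ± SD. The Fth1 points of PD16 Ami25 and Ami50 (6377 to 13741 CPM) lie above all PD16 methimazole and vehicle points (3598 to 5463 CPM), and in part below the lowest GD21 point (8923 CPM).

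Fth1 encodes the ferritin heavy chain, the subunit that oxidises ferrous iron as it enters the shell. Its lowest, median and highest levels at PD16 were 6377, 10186 and 13733 CPM in Ami25, against 3598, 4035 and 4704 CPM in vehicle libraries. In Ami50 they were 8308, 10224 and 13741 CPM. All 11 Ami25 and all 12 Ami50 libraries were above the highest vehicle library. How many of all genes separate groups in this way was not counted, here or for the separations below. Of all genes, 54.4% were called in Ami25 and 52.4% in Ami50. The log2 fold change over vehicle was 1.37 in Ami25 (SE 0.12, edgeR adjusted p = 8.18e-15) and 1.46 in Ami50 (SE 0.12, edgeR adjusted p = 4.09e-16), which are 2.58-fold and 2.74-fold. Without albumin-rich libraries it was 1.33 in Ami25 and 1.45 in Ami50, and without the 8 libraries low in Eif2s3y 1.74 in Ami50, all called. Fth1 also stood 1.35 higher on the log2 scale in Ami50 than in MMI16. In that comparison 2 of the 6 genes were called, Fth1 and Hmox1, beside 47.1% of all genes.

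In the methimazole groups the Fth1 distributions met those of vehicle libraries. Its lowest, median and highest levels were 4040.2, 4800 and 5463 CPM in MMI8 and 4005, 4515 and 5177 CPM in MMI16, and 7 of 10 MMI8 and 4 of 10 MMI16 libraries were above every vehicle library. Over vehicle, Fth1 changed by 0.18 on the log2 scale in MMI8 (95% interval -0.06 to 0.42) and 0.10 in MMI16 (95% interval -0.14 to 0.34), and neither was called. The doses of each compound were compared as well. Between Ami50 and Ami25, 0 of the 6 genes were called, beside 0% of all genes, and between MMI16 and MMI8, 0 of the 6, beside 1.96% of all genes. No member had an unadjusted p under 0.05 in either dose comparison, and DESeq2 called 0.

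Other measures moved with Fth1. Globin content was 6.58% to 13.2% in PD16 amitrole libraries, against 2.98% to 4.31% in PD16 vehicle libraries, with no overlap. The adrenal cortex genes summed to between 11507 and 50727 CPM in Ami25 and between 21551 and 58863 CPM in Ami50, against 12614 to 19643 CPM in vehicle libraries. The part of the adrenal cortex genes in the Fth1 difference was not tested. With log2 globin content as a term in the fit, the Fth1 log2 fold change was 1.07 in Ami25 and 1.18 in Ami50, both still called, although this fit carries the globin slope into a range where the groups do not overlap. In bulk tissue, more cells of a type and more RNA per cell cannot be told apart.

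Ftl1 encodes the ferritin light chain, which helps the iron core form. Its lowest, median and highest levels were 3982, 5425 and 10927 CPM in Ami25 and 3542, 5199.6 and 8042 CPM in Ami50, against 4371, 5372 and 6114 CPM in vehicle libraries. The amitrole ranges held the vehicle range inside them. On the log2 scale Ftl1 stood 0.24 higher in Ami25 (SE 0.11, edgeR adjusted p = 0.0617) and 0.09 higher in Ami50 (SE 0.11, edgeR adjusted p = 0.514). The Ami25 difference was called on leaving out Ami25 replicate 13 (0.28, adjusted p = 0.0345), 15 (0.29, adjusted p = 0.0236) or 35 (0.28, adjusted p = 0.0389). Ftl1 averaged 6033 ± 660 CPM in MMI8 and 6058 ± 980 CPM in MMI16, against 5271 ± 585 CPM in vehicle libraries (SD, n = 10 each), log2 fold changes of 0.15 and 0.14 that did not pass the test.

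The balance of heavy to light chain counts was examined after the values were seen and is given as a description. At PD16 it averaged 1.79 ± 0.579 in Ami25 and 2.09 ± 0.736 in Ami50, against 0.792 ± 0.147 in vehicle libraries (SD). It was 0.807 in MMI8 and 0.771 in MMI16. All Ami50 libraries (1.35 to 3.41) lay above all vehicle libraries (0.588 to 1.03), while the Ami25 libraries (0.823 to 2.95) met them. At GD21 the group means were 2.66 to 3.16, including 2.82 ± 0.511 in vehicle libraries. Both genes together took 1.63% of counts in PD16 Ami25, 1.59% in Ami50, 1.08% in MMI8, 1.06% in MMI16 and 0.937% in vehicle libraries. The MMI8 libraries (0.998% to 1.16%) did not overlap the vehicle libraries (0.833% to 0.971%) in this share, although neither ferritin gene was called there.

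**Figure D2:**
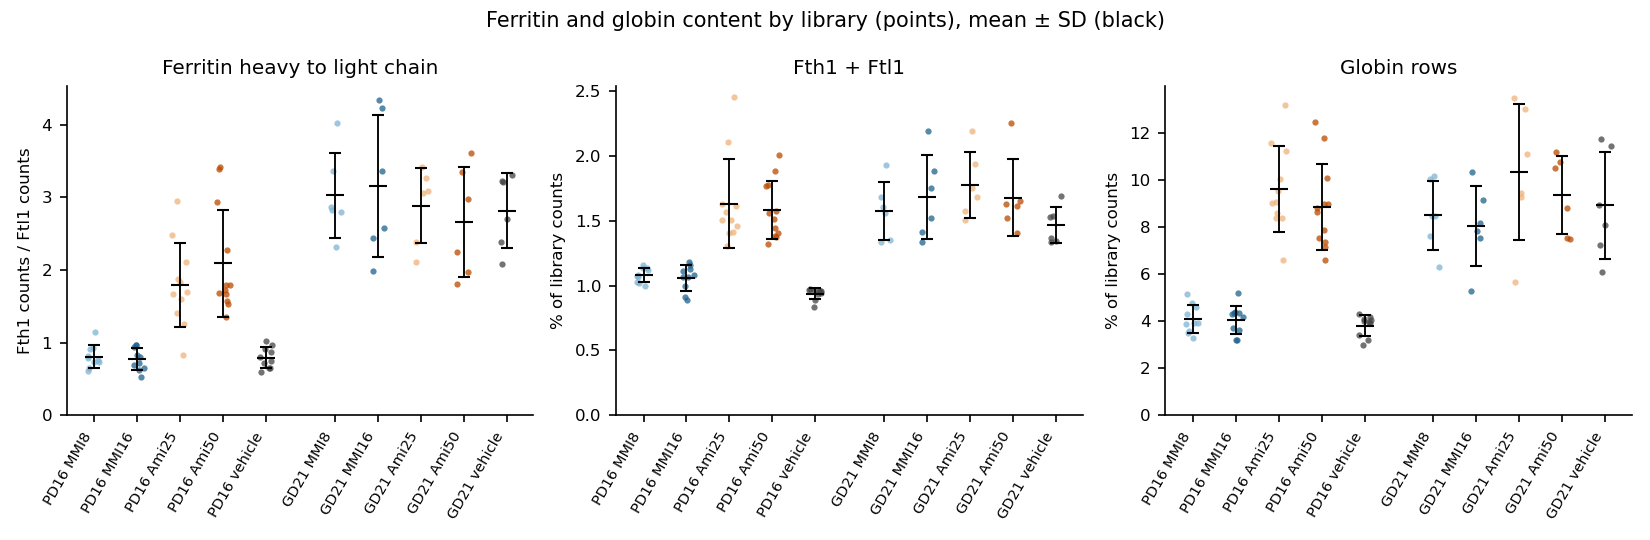
Ratio of Fth1 to Ftl1 counts (left), share of library counts in Fth1 and Ftl1 together in percent (middle) and share of library counts in the 10 globin rows in percent (right); points are libraries and black bars are the mean ± SD. In all 3 panels the PD16 amitrole groups stand above the PD16 methimazole and vehicle groups, with mean ratios of 1.79 and 2.09 against 0.771 to 0.807.

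Tfrc encodes the transferrin receptor, the main route of iron into red cell precursors and dividing cells. At PD16 its mean level was lower in both amitrole groups than in vehicle libraries, but the difference did not pass the test. The lowest, median and highest levels were 8.88, 59.9 and 138 CPM in Ami25 and 19.9, 58.3 and 157 CPM in Ami50, against 53.7, 122 and 148 CPM in vehicle libraries. Of the Ami25 libraries 5 of 11, and of the Ami50 libraries 4 of 12, lay below every vehicle library, and the other libraries overlapped. The log2 fold change was -0.67 in Ami25 (SE 0.33, edgeR adjusted p = 0.0829) and -0.48 in Ami50 (SE 0.32, edgeR adjusted p = 0.218). With globin content as a term it was -2.55 (adjusted p = 0.00393) and -2.09 (adjusted p = 0.00689), called in both, with the same lack of overlap in globin between groups. The Ami25 call was also made without the albumin-rich library (-0.85, adjusted p = 0.0240), with total counts in place of scaled ones (-0.74, adjusted p = 0.0391), and on leaving out replicate 13, 14 or 33. Without the libraries low in Eif2s3y the Ami50 value was -0.11. Tfrc averaged 122 ± 37.3 CPM in MMI8 and 98.5 ± 51.4 CPM in MMI16, against 113 ± 30.6 CPM in vehicle libraries (SD, n = 10 each).

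Slc40a1 encodes ferroportin, the only known exporter of iron from mammalian cells, which is rich in macrophages. It was a low gene here, with 2 to 28 counts per library at PD16 and 7 to 68 at GD21. It averaged 28.9 ± 14.0 CPM in PD16 Ami25 and 19.9 ± 10.0 CPM in PD16 Ami50, against 27.1 ± 7.07 CPM in PD16 vehicle libraries (SD), and the groups overlapped. Its log2 fold change was 0.08 in Ami25 (95% interval -0.38 to 0.54) and -0.33 in Ami50 (95% interval -0.80 to 0.14). Without the 3 albumin-rich Ami50 libraries the Ami50 value was -0.64 and was called (adjusted p = 0.0287). In the methimazole groups the means were 24.0 ± 9.08 CPM in MMI8 and 25.1 ± 12.5 CPM in MMI16.

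Hmox1 encodes the inducible haem oxygenase, which breaks haem down to iron, biliverdin and carbon monoxide. At PD16 it was higher in both amitrole groups. Its lowest, median and highest levels were 9.03, 25.1 and 134 CPM in Ami25 and 11.0, 28.1 and 120.5 CPM in Ami50, against 6.50, 11.7 and 16.2 CPM in vehicle libraries. Of the Ami25 libraries 9 of 11, and of the Ami50 libraries 10 of 12, lay above every vehicle library. Over vehicle the log2 fold change was 1.79 in Ami25 (SE 0.38, edgeR adjusted p = 6.66e-05) and 1.70 in Ami50 (SE 0.38, edgeR adjusted p = 0.000128), which are 3.47-fold and 3.25-fold. In each group a single library stood far above the rest. Ami25 replicate 78 had 78 counts (134 CPM), and Ami50 replicate 19 had 75 counts (120.5 CPM). Without each of them in turn the log2 fold change was 1.37 in Ami25 and 1.31 in Ami50, and both were still called. The Ami50 value was 1.31 without all 3 albumin-rich libraries and 2.32 without the libraries low in Eif2s3y, both called. Ami50 replicate 19 was also the Ami50 library with the most albumin, at 2686 CPM, whereas Ami25 replicate 78 had 10.3 CPM of albumin.

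Hmox1 is made in macrophages among other cells, and a list of 12 macrophage genes moved with it. The list summed to between 161 and 402 CPM in PD16 Ami25 and between 208 and 429 CPM in PD16 Ami50, against 150 to 185 CPM in PD16 vehicle libraries. The tissue macrophage markers Vsig4, Marco and Cd5l had no count in PD16 vehicle or MMI8 libraries, Marco had none in PD16 Ami25 libraries and Cd5l none in PD16 MMI16 libraries, while all 12 genes had counts in PD16 Ami50. Albumin-rich libraries numbered 3 in PD16 Ami50, 1 in Ami25, 1 in MMI16, 0 in MMI8 and 0 in vehicle. Whether the counts of these markers came from albumin-rich libraries was not tested. The part of macrophages in the Hmox1 difference was not tested. In the methimazole groups the list summed to between 65.3 and 130 CPM in MMI8 and between 73.2 and 125 CPM in MMI16, below all vehicle libraries, while Hmox1 averaged 16.8 ± 8.96 CPM in MMI8 and 13.6 ± 6.86 CPM in MMI16, against 11.3 ± 3.04 CPM in vehicle libraries (SD, n = 10 each). Over vehicle, Hmox1 changed by 0.49 in MMI8 (95% interval -0.38 to 1.37) and 0.35 in MMI16 (95% interval -0.51 to 1.21) on the log2 scale. The counts behind this gene were few, with a median of 8 per PD16 library and 0 in 1 MMI16 library. In Ami50 against MMI16, Hmox1 stood 1.35 higher on the log2 scale (SE 0.37, edgeR adjusted p = 0.00241), and 1.76 with globin content as a term (adjusted p = 0.0517, not called). Globin content did not overlap between these groups, so the lost call cannot be read as an effect of globin.

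Hmox2 encodes the constitutive haem oxygenase. Its group means lay between 68.4 and 86.5 CPM over all 10 groups, and no neighbouring means in that order differed by more than the larger of their SDs. At PD16 its log2 fold change over vehicle was 0.16 in MMI8, 0.21 in MMI16, 0.27 in Ami25 and 0.26 in Ami50, and none was called, although the Ami25 value was called without Ami25 replicate 15 (0.33, adjusted p = 0.0472). The table also holds a row for the pseudogene copy Hmox2-ps1, whose reads may be hard to tell from those of Hmox2, so both rows are uncertain. That row averaged 35.8 ± 25.0 CPM in PD16 MMI16, against 19.7 ± 7.30 CPM in PD16 vehicle libraries (SD, n = 10 each), a log2 fold change of 0.95 (SE 0.31, edgeR adjusted p = 0.0446). Replicate 9, the albumin-rich MMI16 library, had 96.9 CPM of it, and without that library the log2 fold change was 0.44 (adjusted p = 0.462). The ferritin genes have processed copies in the rat genome too, and how reads that match several places were counted is not given in the sources used here.

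**Figure D3:**
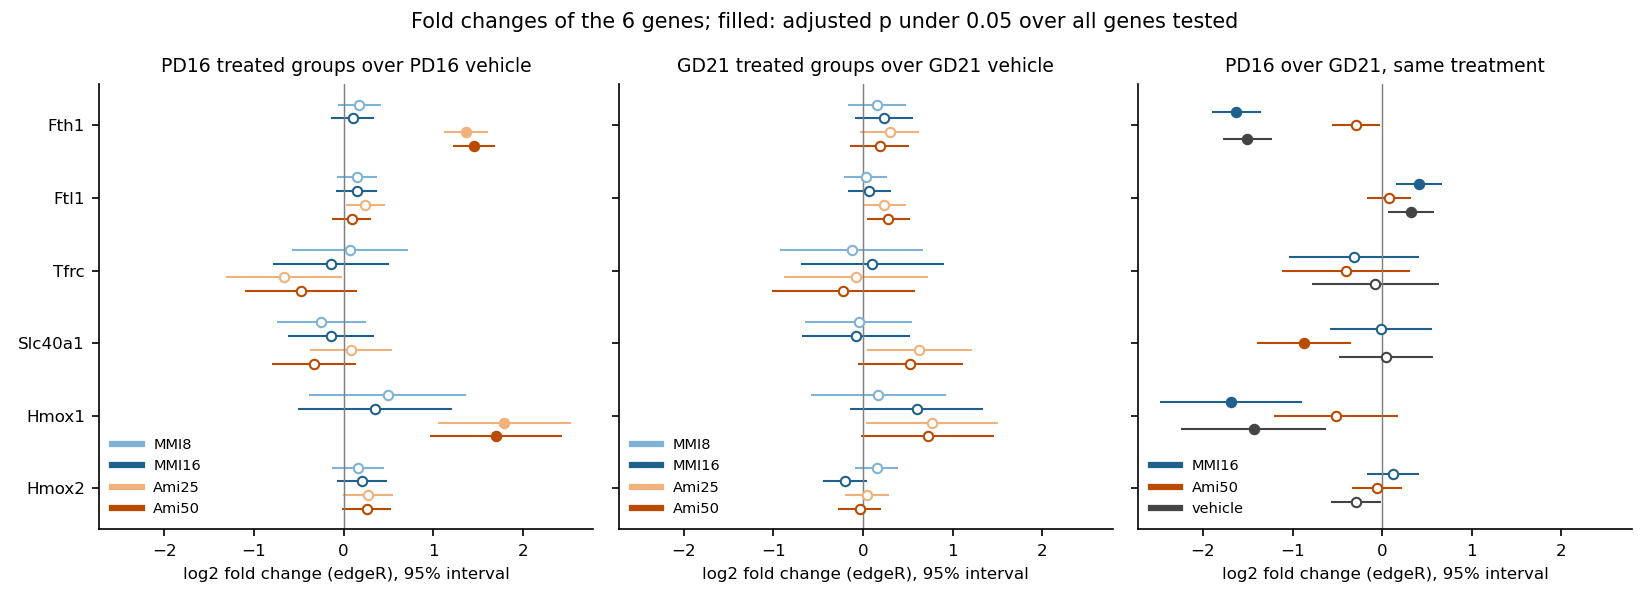
Log2 fold changes of the 6 genes with 95% intervals from edgeR, for PD16 treated groups over PD16 vehicle (left), GD21 treated groups over GD21 vehicle (middle) and PD16 over GD21 within a treatment (right); filled points have an adjusted p under 0.05. Fth1 stands at 1.37 and 1.46 in the PD16 amitrole groups and at -1.63 and -1.51 for PD16 over GD21 in MMI16 and vehicle, and no point is filled in the middle panel.

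At GD21 none of the 6 genes passed the test in any of the 6 comparisons among groups, beside 0% of 6236 genes in each. At an unadjusted p under 0.05 there was 1 of the 6 in Ami25 (Slc40a1), 1 in Ami50 (Ftl1), 1 between MMI16 and MMI8 (Hmox2) and 0 in the other comparisons. DESeq2 called 0 of the 6. Fth1 averaged 13192 ± 2472 CPM in GD21 Ami25 and 12093 ± 2751 CPM in GD21 Ami50, against 10799.6 ± 1373 CPM in GD21 vehicle libraries (SD, n = 6 each). The log2 fold change was 0.30 in Ami25 (95% interval -0.03 to 0.62) and 0.19 in Ami50 (95% interval -0.14 to 0.51), with upper bounds below the PD16 values of the same doses. The difference between stages was tested for Ami50 only. Without albumin-rich libraries the GD21 Ami50 value changed sign.

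Hmox1 levels at GD21 overlapped between groups. Its lowest, median and highest levels were 12.1, 38.2 and 84.8 CPM in Ami25 and 32.8, 45.2 and 72.8 CPM in Ami50, against 23.3, 28.4 and 37.0 CPM in vehicle libraries. The log2 fold change was 0.77 in Ami25 (adjusted p = 0.562), 0.72 in Ami50 (adjusted p = 0.773) and 0.60 in MMI16 (adjusted p = 1.00), by edgeR. Of the GD21 Ami50 libraries 5 of 6 lay above every vehicle library. Slc40a1 averaged 36.6 ± 19.3 CPM in GD21 Ami25 and 34.9 ± 9.09 CPM in GD21 Ami50, against 24.3 ± 8.16 CPM in GD21 vehicle libraries (SD, n = 6 each), log2 fold changes of 0.63 and 0.53. Ftl1 stood 0.24 higher in Ami25 and 0.28 higher in Ami50 on the log2 scale, with 4 of 6 libraries of each above every vehicle library, and neither was called.

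The libraries labelled PD16 and GD21 were then set against each other within a treatment. In vehicle libraries Fth1 and Hmox1 were lower and Ftl1 was higher at PD16, so 3 of the 6 genes were called, beside 44.7% of 6287 genes. Fth1 fell by 1.51 on the log2 scale (SE 0.14, edgeR adjusted p = 2.08e-15), and all 10 PD16 vehicle libraries lay below all 6 GD21 vehicle libraries. Hmox1 fell by 1.43 (SE 0.41, edgeR adjusted p = 0.00306), again with no overlap, and by 1.36 with globin content as a term (adjusted p = 0.0658, not called). Globin content did not overlap between these groups either, so that lost call cannot be read as an effect of globin. Hmox1 was at most 16.2 CPM in PD16 vehicle libraries, so its pass of the filter rested mainly on other groups. Ftl1 was 0.32 higher (SE 0.13, edgeR adjusted p = 0.0369), a call that was lost under 6 of the alternatives, among them DESeq2 (0.26, adjusted p = 0.0818), and on leaving out any 1 of 12 of the 16 libraries (0.24 to 0.31). Hmox2 fell short of a call at -0.29 (edgeR unadjusted p = 0.0409, adjusted p = 0.0833), and DESeq2 called it (-0.35, adjusted p = 0.0214), as did 4 other alternatives and leaving out any 1 of 5 libraries (-0.37 to -0.34).

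MMI16 libraries gave values of the same kind. Between PD16 and GD21, 3 of the 6 genes were called in MMI16, beside 45.6% of all genes: Fth1 (-1.63), Hmox1 (-1.68) and Ftl1 (0.41) on the log2 scale. The Ftl1 call was lost with no filter on low counts (0.33) and without GD21 MMI16 replicate 49 or 50 (0.30 in each, adjusted p = 0.0755 and 0.0754). The comparison in Ami50 called 1 of the 6, Slc40a1, beside 7.62% of all genes. Slc40a1 averaged 19.9 ± 10.0 CPM in PD16 Ami50 (n = 12), against 34.9 ± 9.09 CPM in GD21 Ami50 (n = 6), and fell by 0.87 on the log2 scale (SE 0.27, edgeR adjusted p = 0.0242). Without the 8 libraries low in Eif2s3y this value was -0.67 and was not called (adjusted p = 0.498), and it was not called with the library number series as a term (-0.73), with total counts (-0.78), or on leaving out GD21 Ami50 replicate 89 (-0.83, adjusted p = 0.0579) or 90 (-0.79, adjusted p = 0.0792). Fth1 in Ami50 fell by 0.29 and Hmox1 by 0.51, neither called, and both changed sign without the libraries low in Eif2s3y (0.01 and 0.13).

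Whether the amitrole difference itself depended on the labelled stage was tested as an interaction. Mean embryonic globin share was 0.142% in PD16 Ami50 and 14.8% in PD16 vehicle libraries. In the interaction, too, treatment and true age therefore cannot be told apart. For Ami50, 1 of the 6 genes was called, Fth1, beside 31.1% of all genes. Its fold change over vehicle was 1.21 larger on the log2 scale at PD16 than at GD21 (SE 0.20, edgeR adjusted p = 5.95e-07). The interaction was 0.92 for Hmox1 (SE 0.55, adjusted p = 0.208) and -0.92 for Slc40a1 (SE 0.38, adjusted p = 0.0579), so a stage difference was not shown for these. Without the libraries low in Eif2s3y the Hmox1 interaction was 1.58 and was called (adjusted p = 0.0391), and without albumin-rich libraries the Slc40a1 interaction was -1.23 and was called (adjusted p = 0.0274). The Slc40a1 interaction was also called on leaving out any 1 of 7 libraries, with values of -1.10 to -0.97: GD21 vehicle replicate 44, GD21 Ami50 replicate 55 or 56, PD16 vehicle replicate 3 or 4, or PD16 Ami50 replicate 19 or 85. For MMI16, 0 of the 6 interactions were called, beside 4.63% of all genes. By DESeq2 there were also 0, and 1 of the 6, Hmox2, had an unadjusted p under 0.05.

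Ordered by mean level, the groups fell into separate sets for Fth1. The 5 GD21 groups came first, with means of 13192 CPM in Ami25, 12720.1 CPM in MMI16, 12093 CPM in Ami50, 11855 CPM in MMI8 and 10799.6 CPM in vehicle libraries. PD16 Ami50 (10548 CPM) and PD16 Ami25 (10232 CPM) followed within the SD of their neighbours. A gap of 5447 CPM, beyond the larger SD of 2285 CPM, then separated PD16 MMI8 (4785 CPM), MMI16 (4546 CPM) and vehicle (4103 CPM). For Hmox1 the only gap beyond the larger SD was between PD16 MMI8 (16.8 ± 8.96 CPM) and GD21 vehicle (29.1 ± 5.66 CPM). For Ftl1, Tfrc, Slc40a1 and Hmox2 no neighbouring groups differed by more than the larger SD.

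The relation to globin content was examined within groups, because PD16 libraries fall into separate sets of low and high globin. In each group the Pearson correlation between a gene's level and globin content was computed over 6 to 12 libraries. Both were taken on the log2 scale, with globin counts left out of the total. Of 60 such relations, 3 had a two-sided permutation p under 0.05 by Pearson's r and 4 by Spearman's rho, and 0 remained after adjustment over the 60 (lowest adjusted p 0.140 and 0.269). Both measures in a relation come from the same library and its total. Tfrc had a positive r in 10 of 10 groups, between 0.0717 and 0.806 with a median of 0.449, and in 7 of 10 once the 2 libraries farthest from the median globin share were left out. Its highest r was in PD16 Ami25, at 0.806 (permutation p = 0.00234, adjusted p = 0.140), with a rho of 0.800 (permutation p = 0.00449, adjusted p = 0.269) and an r of 0.606 without the 2 farthest libraries. In PD16 vehicle libraries r was 0.649 (permutation p = 0.0395, adjusted p = 0.547), rho was 0.564 (permutation p = 0.0962, adjusted p = 0.612), and r was 0.794 without the 2 farthest.

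For Fth1 no relation to globin inside a group passed the test, in groups of 6 to 12 libraries. Its r was positive in 9 of 10 groups with a median of 0.282, and in 7 of 10 without the 2 farthest libraries. It was lowest in PD16 Ami25 (-0.0787) and highest in PD16 vehicle libraries (0.553), and 0.297 in PD16 Ami50. Ftl1 was positive in 8 groups (median 0.231), Hmox1 in 5 (median 0.166), Slc40a1 in 3 (median -0.153) and Hmox2 in 3 (median -0.173). A slope on globin content, common to the 5 groups of a stage, was also fitted in edgeR. Per doubling of globin content, Tfrc changed by 1.27 on the log2 scale at PD16 (SE 0.42, adjusted p = 0.244) and by 1.12 at GD21 (SE 0.35, adjusted p = 0.277). The slope of Fth1 was 0.21 at PD16 (95% interval -0.08 to 0.50) and 0.24 at GD21 (95% interval -0.07 to 0.54). At PD16, 0 of the 6 slopes were called, beside 0.306% of all genes, with 1 (Tfrc) at an unadjusted p under 0.05 and 0 by DESeq2. At GD21, 0 of the 6 were called, beside 0.289%, with 2 (Tfrc and Ftl1) at an unadjusted p under 0.05 and 1 (Tfrc, adjusted p = 0.0339) by DESeq2. Alas2, the haem synthesis enzyme of red cell precursors, had slopes of 1.10 (adjusted p = 3.26e-11) and 1.15 (adjusted p = 1.28e-11) at PD16 and GD21.

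**Figure D4:**
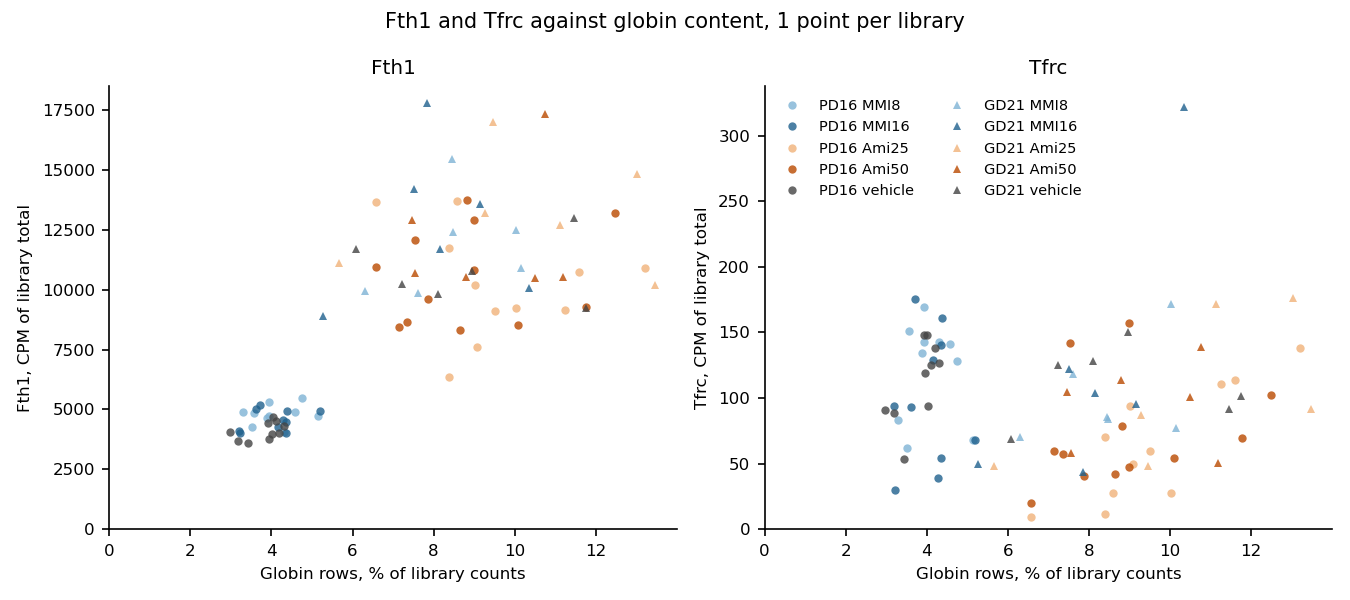
Fth1 (left) and Tfrc (right) in CPM of the library total against the share of library counts in the 10 globin rows in percent, with 1 point per library, circles for PD16 and triangles for GD21. Libraries of PD16 methimazole and vehicle groups hold at most 5.20% globin and the PD16 amitrole libraries at least 6.58%. Within PD16 Ami25 the Tfrc points run upward with globin (r of 0.806) and the Fth1 points do not (r of -0.0787). These r were computed on log2 values with globin counts left out of the total, not on the plotted axes.

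The other genes of iron and haem metabolism were described from a list of 64 genes in 6 lists, of which 58 were in the table and 35 were tested at PD16. Some of the 35 passed the filter mainly through amitrole libraries, so the counts of higher genes lean upward. Among these were Cp, Steap3 and Slc48a1, with at most 8.73, 17.6 and 15.2 CPM in PD16 vehicle libraries. Nfs1 was another, with medians of 16.7 CPM in vehicle, 41.3 CPM in Ami25 and 40.9 CPM in Ami50 libraries. In PD16 Ami50, 20 of the 35 were higher and 4 lower than in vehicle libraries, and in Ami25 19 were higher and 4 lower, beside 52.4% and 54.4% of all genes called. The median log2 fold change of the 35 was 0.42 in Ami50 and 0.45 in Ami25, against 0.02 and 0.01 over all genes. In the haem synthesis list 6 of 8 tested genes were higher in Ami50, 7 of 8 in Ami25 and 0 lower in either. Alas2, whose enzyme makes the first step of haem synthesis in red cell precursors, averaged 376 ± 80.7 CPM in Ami25 and 365 ± 92.2 CPM in Ami50, against 112 ± 13.8 CPM in vehicle libraries (SD), with no overlap. Its log2 fold change was 1.80 and 1.78. Urod, which acts in the middle of the pathway, averaged 339 ± 57.7 CPM in Ami25 and 349 ± 36.5 CPM in Ami50, against 157 ± 28.0 CPM in vehicle libraries (SD), also with no overlap (log2 fold change 1.16 and 1.23). Fech, which inserts iron to complete haem, stood 0.94 and 1.02 higher in Ami25 and Ami50, and Ppox, the step before it, 0.90 higher in Ami50.

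A red cell list of 8 genes, Alas2 among them, moved with these genes. It summed to between 784 and 2544 CPM in Ami25 and between 821 and 2242 CPM in Ami50, against 401 to 724 CPM in vehicle libraries. With globin content as a term, Alas2 (0.22 in Ami25, 0.35 in Ami50) and Fech (0.16 and 0.31) were no longer called, and neither was Iscu (0.36 and 0.59). As for Fth1, this fit carries the globin slope into a range where the groups do not overlap. A lost call in it therefore cannot be read as an effect of globin. The count of called other iron genes was then 10 of 35 in Ami25 and 12 of 35 in Ami50, and the count over all 4906 genes was 1430 in Ami25 and 1412 in Ami50, against 2667 and 2570 without the term.

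The storage list had 2 tested genes, and both were lower in the amitrole groups, beside 54.4% of all genes called in Ami25 and 52.4% in Ami50. Ncoa4 is the receptor that carries ferritin to the lysosome to release its iron. Its lowest, median and highest levels were 155, 246 and 308 CPM in PD16 Ami25, 137, 220 and 356 CPM in Ami50 and 104, 189 and 400 CPM in MMI16, against 374, 440.0 and 1491 CPM in vehicle libraries. All amitrole libraries, and 9 of 10 MMI16 libraries, lay below every vehicle library. Ncoa4 had log2 fold changes of -1.40 in Ami25, -1.47 in Ami50 and -1.68 in MMI16 (SE 0.26, edgeR adjusted p = 1.08e-06). MMI8 libraries had levels of 172, 302 and 861 CPM and overlapped the vehicle libraries. Ncoa4 was the only one of the 35 genes called in MMI16 against vehicle, beside 7.79% of all genes. It was also the only one called between MMI16 and MMI8, beside 1.96% of all genes, at -1.04 (SE 0.26, edgeR adjusted p = 0.0161), and that call was lost under 6 of the alternatives, among them leaving out MMI16 replicate 9 (-0.97, adjusted p = 0.0571) or MMI8 replicate 7, 8 or 63. In MMI8 against vehicle 2 of the 35 were called, beside 8.09% of all genes. Slc11a1, an iron transporter of macrophage endosomes, stood 0.84 higher (edgeR adjusted p = 0.0310), and Alas1, the haem synthesis enzyme of other tissues, 0.61 higher (edgeR adjusted p = 0.0332). Both calls were lost with no filter on low counts and on leaving out any of several single libraries, among them MMI8 replicate 63 (Slc11a1 0.80, Alas1 0.57). The PD16 medians of Slc11a1 were 22.3 CPM in MMI8, 18.6 CPM in MMI16, 13.7 CPM in Ami25, 12.2 CPM in Ami50 and 11.2 CPM in vehicle libraries. Its pass of the filter may thus rest largely on MMI8, the group in which it was called.

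Of 12 mitochondrial iron and iron-sulphur genes, 5 were higher and 1 lower in Ami50, and 3 higher and 1 lower in Ami25. That is 6 and 4 of the 12 called, beside 52.4% and 54.4% of all genes. Nfs1, which supplies sulphur for iron-sulphur clusters, averaged 46.6 ± 10.5 CPM in Ami25 and 43.0 ± 14.4 CPM in Ami50, against 14.6 ± 5.72 CPM in vehicle libraries (SD). Its log2 fold change was 1.70 and 1.65. Iscu, the scaffold on which clusters are built, stood 0.94 and 1.11 higher. Of 6 haem breakdown and transport genes, 5 were higher in Ami50 and 4 in Ami25, among them Slc48a1, which moves haem out of endosomes (1.38 in Ami25 and 1.27 in Ami50), and the haem-binding protein gene Pgrmc1 (1.37 and 1.38), with 0 lower in either group. The iron sensing list had 2 tested genes, of which 1 was higher in Ami50 and 2 in Ami25. The counts of these short lists stand beside the same shares of all genes.

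Of 5 uptake and release genes, 3 were higher and 1 lower in each amitrole group, beside 54.4% of all genes called in Ami25 and 52.4% in Ami50. Steap3, a ferric reductase of endosomes, stood 0.92 higher in Ami25 and 1.38 higher in Ami50. Steap1, of the same family, stood lower in Ami25 by a log2 fold change of -1.33. Cp, the ferroxidase ceruloplasmin, had log2 fold changes of 2.23 in Ami25 and 2.17 in Ami50. The transferrin gene Tf had 3.14 and 3.48, and with globin content as a term -0.81 in Ami25 (adjusted p = 0.652) and 0.26 in Ami50 (adjusted p = 0.882), neither called, with the same lack of overlap in globin between groups. Transferrin is made mainly by the liver, and its highest libraries were albumin-rich ones, at 2305 CPM in Ami25 and 2279 CPM in Ami50, whereas the group medians were 157 and 141 CPM, against 37.4 CPM in vehicle libraries.

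**Figure D5:**
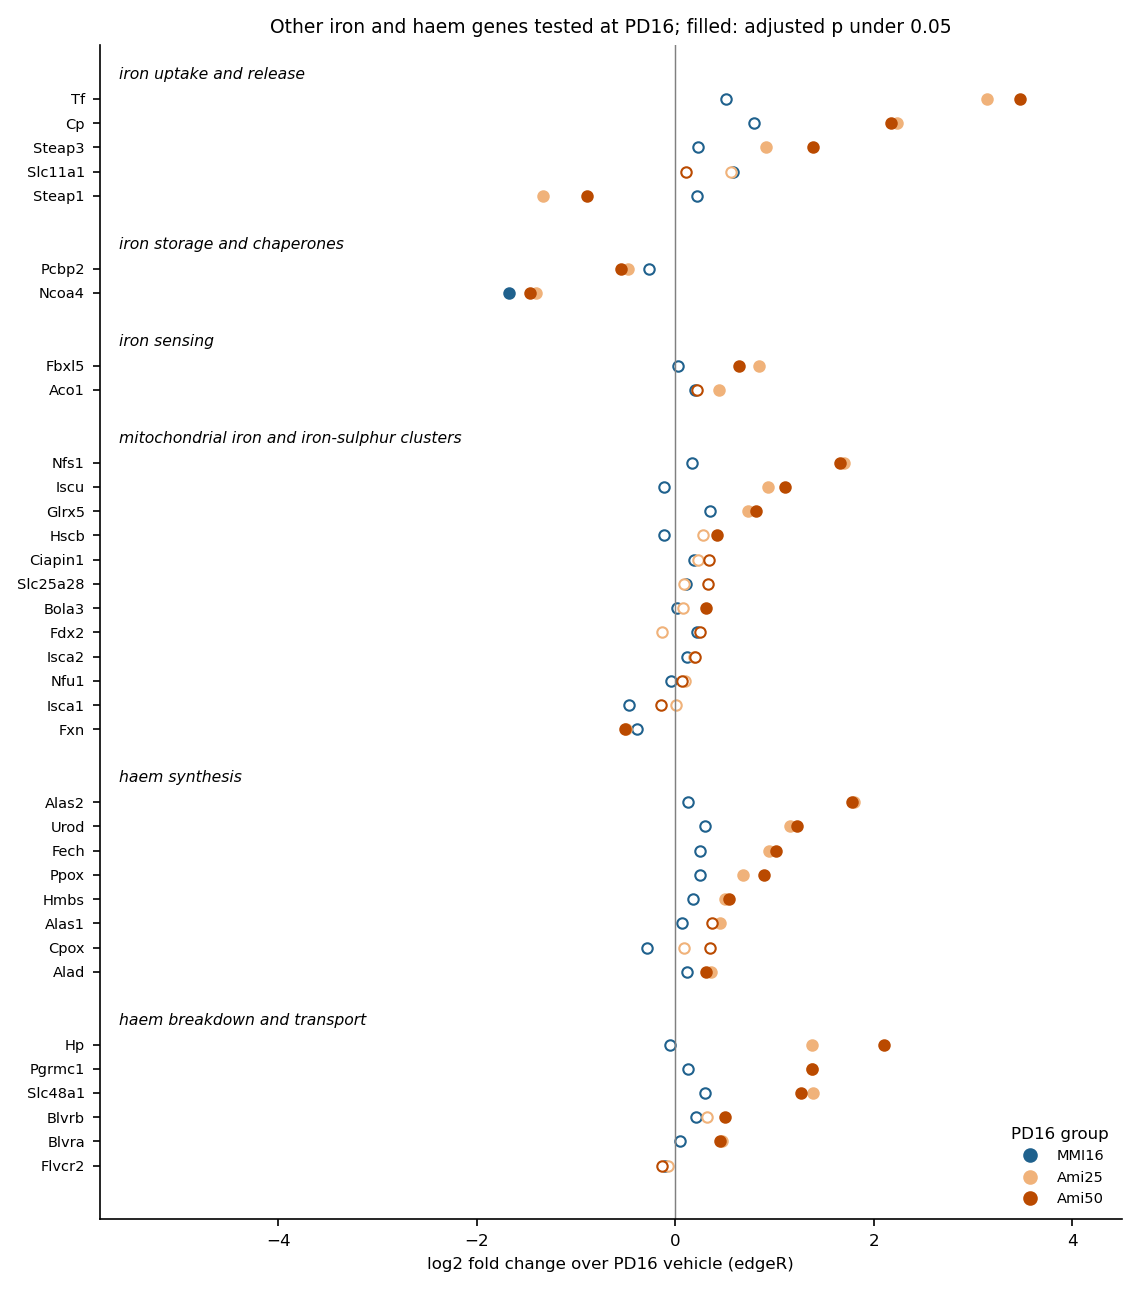
Log2 fold changes over PD16 vehicle from edgeR for the 35 other iron and haem genes tested at PD16, by list, in MMI16, Ami25 and Ami50; filled points have an adjusted p under 0.05. In the haem synthesis list 7 of 8 Ami25 points and 6 of 8 Ami50 points are filled and positive, and Ncoa4 is filled and negative in all 3 groups (-1.68 to -1.40).

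The other iron genes were also compared between stages, where 40 were tested. In vehicle libraries 3 of the 40 were higher and 19 lower at PD16 than at GD21, beside 44.7% of all genes called, with a median log2 fold change of -0.44 against 0.06 over all genes. Some of the 40 passed the filter mainly through groups in which they are high, so the counts of lower genes lean upward. Among these were Cd163 and Hamp, with at most 5.24 and 4.04 CPM in PD16 vehicle libraries. The same holds for the MMI16 and Ami50 stage comparisons below. With globin content as a term 9 of the 40 were called, and 1690 of all 6287 genes against 2809 without it. Globin content was at most 4.31% in PD16 vehicle and at least 6.08% in GD21 vehicle libraries. Calls lost in that fit therefore cannot be read as an effect of globin. Urod fell by 1.22, Alas2 by 1.80, Iscu by 1.66, Nfs1 by 1.43, Pgrmc1 by 1.57 and Slc48a1 by 1.56 on the log2 scale. Cd163, the macrophage receptor for haemoglobin bound to haptoglobin, fell by 3.55, and had 2.48 ± 1.74 CPM at PD16 (n = 10), against 27.7 ± 10.9 CPM at GD21 (n = 6; SD). The liver genes Tf and Hamp, which encodes the iron hormone hepcidin, fell by 4.73 and 4.75, and the GD21 vehicle library with the most albumin, replicate 44, also held the most of both. Without that library Tf fell by 3.24 and Hamp by 4.20, and with globin content as a term Tf fell by 2.16 (adjusted p = 0.207, not called). Pcbp2, an iron chaperone for ferritin, was among the 3 that were higher (0.60), but was not called with globin content as a term (0.23), and neither was Alas2 (-0.31).

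In MMI16 4 of the 40 were higher and 16 lower at PD16, beside 45.6% of all genes called, including Alas2 (-1.36), Ncoa4 (-1.83) and Cd163 (-4.94). With globin content as a term 10 of the 40 were called, Alas2 (-0.21) not among them, beside 2044 of all 6287 genes. Globin content was at most 5.20% in PD16 MMI16 and at least 5.27% in GD21 MMI16 libraries. Lost calls here again cannot be read as an effect of globin. In Ami50 0 were higher and 2 lower, Cd163 (-2.34) and Ncoa4 (-2.10), beside 7.62% of all genes called. The Ami50 interaction with stage was called for 18 of the 40, with 14 positive and 4 negative, beside 31.1% of all genes called, among them Urod (1.33), Alas2 (1.70), Nfs1 (1.53) and Ncoa4 (-2.27). GD21 Ami50 replicate 87 had 2865 CPM of Ncoa4, against a group median of 541 CPM, and without it Ncoa4 stood at -1.35 between stages and at -1.49 in the interaction, both still called. With globin content as a term the Alas2 interaction was 0.30 and was not called, and 9 of the 40 interactions were called, beside 1464 of all 6287 genes. PD16 Ami50 and vehicle libraries do not overlap in globin, so the same limit holds. The MMI16 interaction was called for 2 of the 40, beside 4.63% of all genes, Ncoa4 (-1.99, edgeR adjusted p = 0.00120) and Isca1, an iron-sulphur assembly gene (-1.25, edgeR adjusted p = 0.0295). The Isca1 call was lost with no filter on low counts (-1.27, adjusted p = 0.0638) and in the fit of the compared groups alone (-1.24, adjusted p = 0.449). It was also lost on leaving out GD21 MMI16 replicate 48 (-0.54, adjusted p = 0.639), PD16 vehicle replicate 4 (-0.65, adjusted p = 0.208) or GD21 vehicle replicate 62 (-1.23, adjusted p = 0.0510). Isca1 was at 907 CPM in GD21 MMI16 replicate 48, against a group median of 180 CPM, and at 911 CPM in PD16 vehicle replicate 4, against 136 CPM.

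The genes whose pattern was most like each of the 6 were taken over all 83 libraries and 6287 genes, by Pearson's r of log2 CPM, as a description of libraries that share group and depth. Fth1 was most like Tmem14c (r of 0.953), a gene needed for haem synthesis in mouse red cell precursors, then Fis1 (0.943) and Fxyd5 (0.939). Hmox1 was most like Tyrobp (0.770), a signalling adaptor of myeloid cells, then Fcna (0.733) and LOC498276 (0.726). The genes nearest to Slc40a1 were Aif1 (0.506), Tnfaip8l2 (0.491) and Fcer1g (0.470), of which Aif1 and Fcer1g are known from myeloid cells. Ftl1 was nearest to Arl6ip1 (0.744), Tmed9 (0.742) and Ppil2 (0.738), and Tfrc to Fam104a (0.693), Rpl37a-ps1 (0.687) and Hdgfl2 (0.676). Hmox2 had only weak likenesses, to Oma1 (0.516), Cd9 (0.462) and Smim15 (0.421).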

How the data were processed

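The submitters' processing notes name BWA 0.7.4.4 and the rat build rn6 for the BRB-seq reads. How reads were counted, on which annotation and strand, and how molecular barcodes and multiply matching reads were treated is not given in the sources used here. The authors deposited raw counts per gene symbol and library. All 83 columns were used. Levels are CPM of the library total; 3′-end counts were not divided by length. Tests used R 4.3.3 with edgeR 4.0.16 and limma 3.58.1: filterByExpr with a minimum count of 10, TMM scaling and robust quasi-likelihood F tests, with 5 groups of a stage fitted together (4906 genes at PD16, 6236 at GD21) or all 10 groups for stage comparisons and interactions (6287 genes). Adjusted p-values are Benjamini-Hochberg over all genes tested, and 95% intervals come from the standard error. Correlations used permutation tests, with 100000 resamples in groups of 10 or more and all permutations in groups of 6. DESeq2 1.42.0, other scalings and filters, globin content and library number series as terms, the compared groups alone, and leaving out libraries were alternatives. The scripts were tested on simulated data. The lowest chi-square per degree of freedom between libraries of a group was 1.79 over 331 pairs, so none were merged.

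Globin content is the sum of 10 rows named as haemoglobin genes; reference descriptions were not used for this. Named were the 6 genes, like-named copies, the first 12 called genes of the iron list by adjusted p in each comparison, or fewer, and the 3 likest genes. The genes and lists were chosen with earlier results of these data known.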

Additional observations from a re-analysis of the deposited data

Results flagged for a closer look

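In the GD21 groups of 6 libraries, 3 values stood apart from their group by Dixon's test at the 95% level. Fth1 was 17367 CPM in GD21 Ami50 replicate 89, the highest of the group, in which the median was 10625 CPM; this library is albumin-rich, at 4394 CPM. Tfrc was 322 CPM in GD21 MMI16 replicate 47, against a group median of 99.4 CPM, with 3168 CPM of albumin in that library. Hmox1 was 104 CPM in GD21 MMI16 replicate 72, against a group median of 32.1 CPM, with 1252 CPM of albumin and 756 CPM of the macrophage list. In all 64 sets of values, from groups of at most 10 libraries, were examined this way, and chance alone gives about 3.2. PD16 Ami25 (11 libraries) and PD16 Ami50 (12 libraries) were not examined, so the high Hmox1 values there were not put to this test. Separately, the Fth1 difference between Ami50 and vehicle was 1.21 larger on the log2 scale at PD16 than at GD21 in the interaction test (edgeR adjusted p = 5.95e-07). Treatment and true age cannot be told apart in it.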

How the results depend on the processing

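Fth1 in PD16 Ami25 and Ami50 over vehicle kept its direction and its call under every alternative run, with log2 fold changes of 1.07 to 1.44 and 1.18 to 1.74, and so did Hmox1 (1.37 to 2.27 and 1.31 to 2.32), except that Hmox1 in Ami25 did not pass the count filter when only the compared groups were fitted. The count of the 6 genes called was then 1 in Ami25 over vehicle and 1 in Ami50 over MMI16. Fewer libraries set the filter there, and Hmox1 was at most 16.2 CPM in PD16 vehicle and 26.1 CPM in PD16 MMI16 libraries. Leaving out single libraries gave counts between 2 and 4 in Ami25 over vehicle, 4 being without Ami25 replicate 13 or 15. The GD21 globin slope had 1 call with DESeq2. For Ami50 between stages the count was 0 with total counts, with the library number series as a term and without libraries low in Eif2s3y. The Ami50 interaction had 2 calls with globin content as a term, without albumin-rich libraries, without libraries low in Eif2s3y and in the compared groups alone. Leaving out single libraries gave counts of 0 to 1 for Ami50 between stages and of 1 to 2 for the Ami50 interaction. For these counts, other than those at the filter, the cause was not tested. Directions that turned were all of uncalled values except Tf: Tfrc in PD16 MMI8 (-0.027) and Tf in PD16 Ami25 (-0.81) with globin content as a term, Slc40a1 in PD16 Ami25 (-0.010 without vehicle replicate 3, -0.060 without Ami25 replicate 36, up to 0.16 on leaving out others), Fth1 in GD21 Ami50 without albumin-rich libraries (-0.036), and Fth1 (0.013) and Hmox1 (0.13) in Ami50 between stages without libraries low in Eif2s3y; the cause was not tested. No paired analysis was possible because each library has a number of its own. At PD16 depth, Hmox1 and Slc40a1 rest on medians of 8 and 12 counts per library.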
